A study of Rattus norvegicus with 98 samples.

Results

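Broad domains of histone H3 lysine 27 acetylation (H3K27ac) that were broad in few regions of the rat brain are described here. A broad peak was a called H3K27ac peak of 5 kb or wider on chromosomes 1 to 20. Broad peaks that overlapped between libraries were joined into a domain, and a region held a domain when 1 or more of its libraries had a broad peak in it. Domains held by 1 to 4 of 24 regions, with broad peaks in 2 or more libraries in total, were kept. They numbered 113 of 260 domains, or 43.5%. Peak width chose these domains, so their widths and the number of regions that held them are given as a description, without a test.

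H3K27ac marks active promoters and active enhancers, and chromatin immunoprecipitation followed by sequencing (ChIP-seq) reads out where it lies. Most stretches with the mark are short. Long stretches, in which several marked elements lie close together, are known from genes that define the identity of a cell type, and a region of the brain is a mixture of many cell types.

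The libraries came from male Long-Evans rats, whose treatment began at 2 months of age. The FT group drank fluoxetine, a selective serotonin reuptake inhibitor, at 18 mg/kg for 6 weeks, and the Sham group drank water without the drug. Regions were punched out of frozen brain sections, and each library was made from punches pooled over several animals, so the 2 replicates per treatment are pools and not single animals. There were 92 libraries, 46 Sham and 46 FT, with 2 libraries per treatment in 21 regions and fewer in arc, MPOA and PVN. The 24 regions covered the cortex (prelimbic, PLC; infralimbic, ILC; cingulate, CGC; insular), the nucleus accumbens (NaCshell, NaCcore), the septum (lateral, LS; medial, MS), the bed nucleus of the stria terminalis (BNST), the amygdala (basolateral, BLA; centromedial, CMA) and the dentate gyrus (dorsal, dorDG; ventral, venDG). They also covered the hypothalamus and thalamus (medial preoptic area, MPOA; paraventricular nucleus, PVN; mediodorsal thalamus, MDT; lateral hypothalamus, LH; ventromedial hypothalamus, VMH; arcuate nucleus, arc) and the brainstem (ventral tegmental area, VTA; periaqueductal gray, PAG; raphe; locus coeruleus, LC; nucleus of the solitary tract, Snt). Domains are named by their position in the Rn5 assembly, counted from 1, and no gene annotation of that assembly was used here.

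A list held 19378 to 54505 peaks, with a median peak width between 1000 and 1800 bp. Broad peaks were rare, at 1444 of 3919459 peaks or 0.0368%. A Sham library had a median of 7 broad peaks and an FT library a median of 17. Over the 92 libraries, the number of member domains with a broad peak followed the median peak width of the list (Pearson r = 0.613) and, less closely, the list length (r = 0.334). Read depth is unknown, because the lists carry no read counts. Sham LC replicate 1 stood apart within its region, with broad peaks in 15 member domains against 1, 3 and 1 in the other LC libraries. The peaks of Sham Raphe replicate 1 overlapped those of Sham Snt replicate 1 (Jaccard index 0.833) more than those of any other Raphe library (0.789), and 11 of the 92 libraries were likewise nearest to a library of another region. Without Sham LC replicate 1 there were 108 member domains, and without Sham Raphe replicate 1 there were 112.

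Of the 260 domains, 91 rested on a single library and 56 were held by 5 or more regions, of which 1 was held by 20. Among the 113 member domains, 28 were held by 1 region, 47 by 2, 23 by 3 and 15 by 4. Most rested on few libraries: 42 had a broad peak in 2 libraries, 29 in 3 and 20 in 4, while the fullest had 12. The member domains held 395 broad peaks with a median width of 5200 bp and a widest of 7300 bp. The domains themselves, as the union of their broad peaks, were 5006 to 7393 bp long with a median of 5398 bp.

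**Figure D1:**
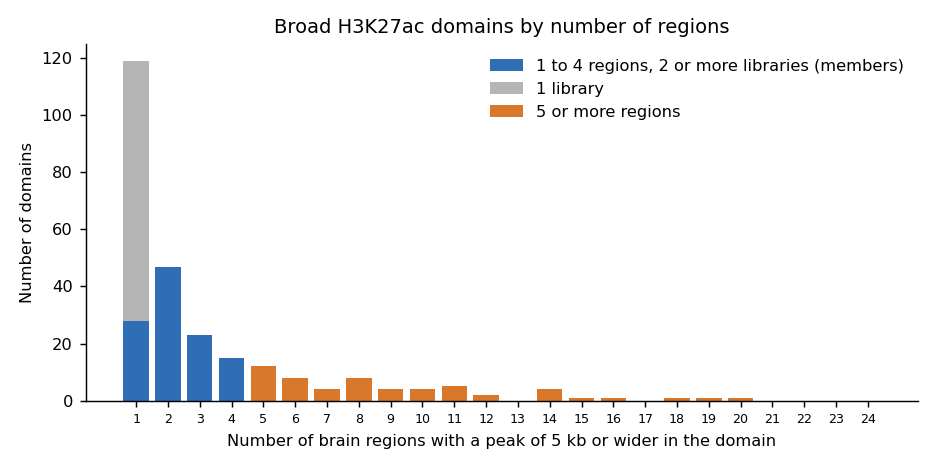
Number of broad H3K27ac domains (vertical axis) by the number of the 24 brain regions that held a peak of 5 kb or wider in them (horizontal axis). Blue bars are the 113 member domains, the grey bar the 91 domains of a single library, and orange bars the 56 domains of 5 or more regions, which thin out to 1 domain held by 20 regions.

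Many members sat close to the 5 kb limit. Of the 395 broad peaks, 98 were exactly 5000 bp wide and 71 were 5100 bp wide. Just outside the limit, the widest peak was 4900 bp in 73 pairs of a member and a library of another region, and 4800 bp in 112 pairs. The neighbours just past the limit on regions were 12 domains held by 5 regions, with 5 to 13 libraries. When peaks of 4.5 kb or wider were counted as holding a domain, 71 of the 113 members were still held by 4 or fewer regions, 33 by 5 to 11 and 9 by 12 or more. At 4 kb those counts were 56, 36 and 21, and at 3 kb they were 36, 34 and 43. What few regions held was thus the width of the peak, and for 36 of 113 domains this remained so down to a width of 3 kb.

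The regions that did not hold a domain mostly had a narrower peak in it. Over all members there were 9406 pairs of a domain and a library of another region, and 88.1% of them had a narrow peak while 11.9% had no peak. In 42.9% there was 1 narrow peak. In 45.2% there were 2 or more, so that in those pairs the stretch that was continuous in the holding library was broken up. Where a narrow peak was present, the widest had a median of 2400 bp, the narrow peaks together covered a median of 58.3% of the domain, and 12.6% of the widest were 4 kb or wider. In 58 members every library of the other regions had a peak, and in 83 at least 95% of them did. None of the 113 members lacked a peak in all libraries of its other regions. Domains held by 5 to 19 regions differed from the members in that 99.4% of such pairs had a narrow peak and 0.625% had none. This comparison carries no test, since the number of regions that held a domain chose the members.

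The strongest narrow peaks in the other regions ranked high in their lists. Within each library the peaks were ranked by the score of the peak caller. Where several peaks lay in a domain, the highest rank and the highest −log10 p were taken. The broad peaks of members had a median rank at the 86.1 percentile (25th to 75th percentile of peaks, 78.4 to 92.2). The narrow peaks of the other regions had a median rank at the 81.5 percentile (64.8 to 91.4). The −log10 p of the caller was at its limit of 200 for 17.2% of the first and 10.7% of the second.

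The holding regions were themselves uneven. There were 595 pairs of a member and a library of a holding region without a broad peak. Of these pairs 99.5% had a narrow peak, with a median widest peak of 2900 bp. In the regions with 4 libraries, a member was held 240 times. In 145 of these holdings (60.4%) 1 library carried the broad peak, in 58 it was 2, in 28 it was 3, and in 9 (3.75%) it was all 4. For domains of 5 or more regions, 42.4% of 458 holdings rested on 1 library and 11.1% on all 4.

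The share with a narrow peak turned on whether PAG held the domain. The 29 members held by PAG had a narrow peak in 62.9% of the libraries of their other regions and no peak in 37.1%. The 84 members that PAG did not hold had a narrow peak in 97.1% and none in 2.94%. Among members of 1 region, the 14 held by PAG alone stood at 55.9% with a narrow peak and the 14 held by another region alone at 89.1%. Without the PAG libraries there were 91 member domains and the share over them was 95.9%. The share also depended on treatment pool, at 88.6% for Sham replicate 1, 83.3% for Sham replicate 2, 89.6% for FT replicate 1 and 90.7% for FT replicate 2.

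**Figure D2:**
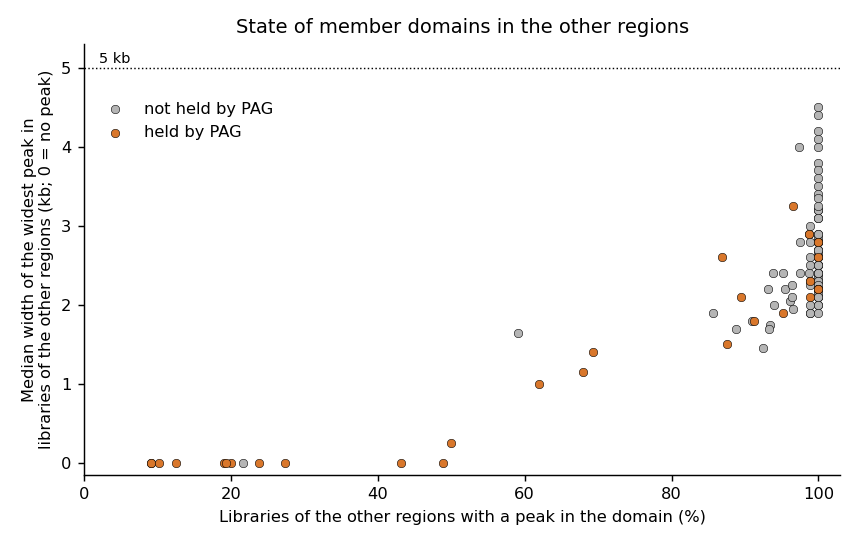
Each point is 1 of the 113 member domains. The horizontal axis gives the percentage of libraries of the other regions with a peak in the domain and the vertical axis the median width of the widest peak over those libraries, in kb, with 0 where the median library had no peak; the dotted line marks 5 kb. Most domains crowd at the right edge between 2 and 4 kb, and 11 of the 12 domains under 50% are held by PAG (orange).

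In 12 members fewer than 50% of the libraries of the other regions had a peak, and PAG held 11 of them. The lowest were chr19:63998452-64003920 and chr2:203805002-203810401, both held by PAG alone with broad peaks in Sham replicate 1 and both FT replicates. Each had a peak in 8 of 88 libraries of the other regions, or 9.09%. The domain chr7:30641302-30646702, broad in PAG Sham replicate 1 and FT replicate 1, had one in 9 of 88. The domain chr6:68732206-68737432, broad in PAG Sham replicate 1 and both FT replicates, had one in 11 of 88. These domains were thus marked at broad width in some PAG libraries and unmarked in most of the brain. The limit was nearly reached outside PAG. In LC the widest peak was 4900 bp in the domains on chromosomes 7 and 6, 4400 bp on chromosome 2 and 3000 bp on chromosome 19. In Raphe it was 4500 bp on chromosome 2. PAG Sham replicate 2 was itself below 5 kb, at 4600, 2100, 2400 and 2500 bp in the order given above. The exception among the 12 was chr18:55434117-55439376, which was broad in both FT libraries of dorDG and had a peak in 19 of 88 libraries of the other regions.

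Among the regions that did not hold these 12 domains, LC and Raphe most often had narrow peaks in them. LC did not hold 9 of them and had a narrow peak in all 4 libraries for 8 of the 9. Raphe did not hold 11 and had a narrow peak in 1 or more libraries for 10, with 72.7% of its domain and library pairs covered. Snt had one in 7 of 12 domains but in 14.6% of pairs, and BNST in 0 of 12. After LC and Raphe came venDG, with narrow peaks in 45.8% of pairs, and PVN, with 41.7%. The other 101 members had a narrow peak in at least 50% of the libraries of their other regions, and PAG held 18 of those.

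The fullest of the 12 was chr19:66375720-66381919, held by PAG, LC and Raphe. In PAG its widest peak was 6200 and 5500 bp in the Sham libraries (replicates 1 and 2) and 5800 and 5000 bp in the FT libraries. In LC the widths were 5500 and 4600 bp in Sham and 5800 and 3200 bp in FT. In Raphe there was no peak in Sham replicate 1, a peak of 600 bp in Sham replicate 2, and peaks of 5000 and 2800 bp in FT. All 4 libraries of PAG were thus at or above the limit, whereas LC and Raphe were mixed. Of the 80 libraries of the other 21 regions, 16 had a peak (20%) and the widest was 1900 bp, in ILC FT replicate 1.

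Member domains were spread unevenly over the brain. Snt held 35 (31% of members), PAG 29, Raphe 27, LH 20, BNST and LC 17 each, and NaCcore and VTA 16 each. The 17 of LC rested on Sham LC replicate 1, and without that library LC held 4. The dorsal dentate gyrus held 10, MDT 9, BLA 7 and arc 6, and the remaining 12 regions held 2 to 5. The regions with many members also held many of all 260 domains. Of those, Snt held 86, Raphe 67, LH 58, PAG and NaCcore 54 each, BNST 53, VTA 52 and LC 41. All domains, which include the members, were thus also spread unevenly, and whether the members were more so was not tested. Of the domains of 5 or more regions, however, PAG held 9, against 41 in Snt and 37 in Raphe. The brainstem regions VTA, PAG, Raphe, LC and Snt, a grouping chosen after these counts were seen, held 74 of the 113 members (65.5%), and 43 members (38.1%) were held by them alone. Their 20 libraries out of 92 supplied 124 of the 251 holdings. The share of all domains held by this grouping was not counted. PAG differed from the others in how often it held a domain alone, with 14 members. Snt had 5 alone, dorDG and arc 3 each, and NaCcore, CMA and MDT 1 each. Raphe held 27 members and none of them alone. In PAG 24 of its 29 members were broad in 2 or more of its libraries, against 21 of 35 in Snt, 8 of 27 in Raphe and 3 of 17 in LC. A member held by 1 region alone is broad in 2 or more libraries of that region by the rule. This fixed 14 of the 24 in PAG and 5 of the 21 in Snt, but none in Raphe or LC. These counts therefore do not show that PAG repeated itself more.

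**Figure D3:**
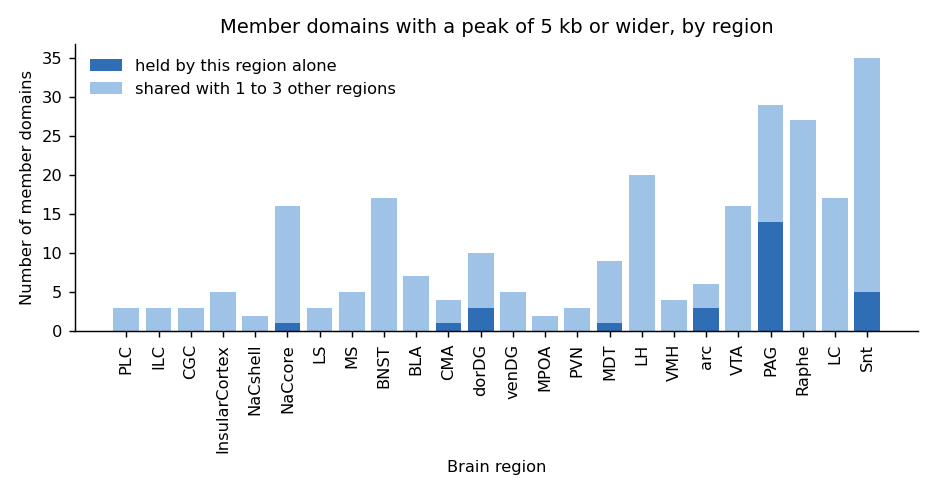
Number of member domains held by each of the 24 brain regions (vertical axis), split into domains held by that region alone (dark) and domains shared with 1 to 3 other regions (light). Snt is highest with 35 and PAG has the most domains held alone, with 14.

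Some pairs of regions shared many members. Raphe and Snt shared 17, which was 63% of the members of Raphe and 48.6% of those of Snt. VTA shared 11 members with Raphe and 11 with Snt. PAG and LC shared 12, or 41.4% of the members of PAG and 70.6% of those of LC, and 7 of the 12 were held by these regions and no other. LC held all 12 through Sham replicate 1, and without that library PAG and LC shared 2. NaCcore and BNST shared 10. Most of these pairs also shared many domains of 5 or more regions: 35 for Raphe and Snt, 30 for VTA and Raphe, 31 for VTA and Snt, and 26 for NaCcore and BNST. PAG and LC shared 5 of those. Sharing by the first 4 pairs was thus not particular to the members. Regions that hold many domains can share many, and the counts were not adjusted for this. Of the 276 possible pairs of regions, 87 shared a member.

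The 10 member domains with broad peaks in the most libraries were mostly held by brainstem regions. The fullest was chr2:60716102-60721838, with broad peaks in 12 libraries of NaCcore, BNST, Raphe and Snt. In Snt its widest peak was 5400 and 5200 bp in Sham and 5600 and 5500 bp in FT. In BNST it was 5100 and 2200 bp in Sham and 5500 and 5300 bp in FT, and in Raphe 5300 and 5100 bp in Sham and 2600 and 5100 bp in FT. In NaCcore both Sham libraries were narrow (1900 and 2100 bp) and both FT libraries broad (5200 and 5300 bp). The 76 libraries of the other 20 regions had a median widest peak of 1750 bp, with no peak in 5 of them. In 56.6% of these libraries there were 2 or more peaks, and the peaks together covered a median of 43.6% of the domain.

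The second, chr18:64569968-64576098, was held by dorDG, venDG, CGC and, through Sham replicate 1 at 5000 bp, BNST. In dorDG its widest peak was 5700 and 5500 bp in Sham and 5700 and 5900 bp in FT. In venDG both Sham libraries reached 5200 bp, and the FT libraries had 4200 and 4600 bp. In CGC the widths were 5300 and 3200 bp in Sham and 5900 and 5300 bp in FT. Here the limit of 5 kb made a fine cut. The other regions had a median widest peak of 4000 bp and a highest of 4900 bp, in Raphe Sham replicate 1. A second member, chr18:64525004-64531425, lay 38.5 kb away and was held by PLC in both FT libraries and by CGC in Sham replicate 2.

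VTA was the steady holder of a pair of domains. In chr19:41766251-41773501 its widest peak was 7000 and 6700 bp in Sham and 6900 and 6900 bp in FT. In chr18:78452574-78458644 it was 5800 and 5800 bp in Sham and 5900 and 5800 bp in FT. Outside the regions that held them, the median widest peaks in these domains were 3000 and 2800 bp, and the highest were 4800 and 3600 bp. The second was thus clear of the limit by a wide margin in every library of the non-holding regions.

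Further domains among the fullest 10 were shared by Raphe, Snt and VTA. In chr4:133377064-133383390 the widest peak in Snt was 6200 and 5500 bp in Sham and 5800 and 6100 bp in FT, and in Raphe it was 6200 and 5800 bp in Sham and 3300 and 3000 bp in FT. VTA had 6200 and 3100 bp in Sham and 2800 and 6000 bp in FT. The 80 libraries of the other regions all had a narrower peak, with a median of 2400 bp and a highest of 3100 bp. In chr11:28072888-28078566 all libraries of Snt were broad (5300 and 5400 bp in Sham, 5600 and 5500 bp in FT), whereas Raphe and VTA each had some libraries below 5 kb. The domain chr7:139463208-139469824 was broad in 3 of 4 libraries of Raphe (6400 and 6300 bp in Sham, 6300 and 3500 bp in FT) and in 3 of 4 of Snt (6400 and 3800 bp in Sham, 6600 and 6100 bp in FT). It was also broad in FT replicate 2 of BLA and of VTA, and its other regions had a median of 3500 bp. In chr7:129968602-129974008 and chr10:92084773-92090412 the highest width in the other regions was 4800 bp in each, so these 2 domains lay close to the limit.

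**Figure D4:**
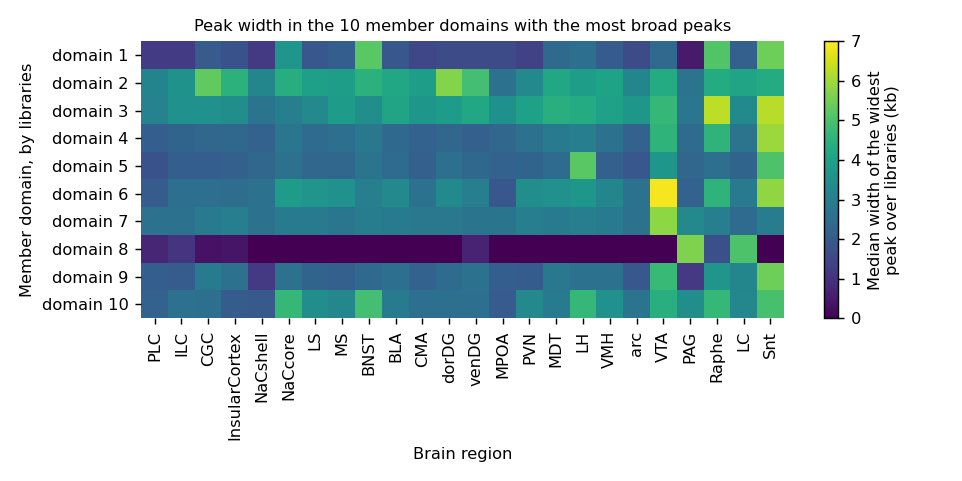
Median width of the widest peak over the libraries of each brain region (colour, in kb; 0 means that the median library had no peak) in the 10 member domains with broad peaks in the most libraries, ordered from 12 libraries (domain 1) to 7 (domain 10). Domain 8, chr19:66375720-66381919, is dark outside PAG, LC, Raphe and a few forebrain regions, while in domain 2, chr18:64569968-64576098, most regions are near 4 kb.

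Domains held by a single region ranged from a clear difference to a narrow miss. The dorsal dentate gyrus alone held chr11:91364902-91370301, at 5000 and 5300 bp in Sham and 5200 and 5300 bp in FT, with all 4 libraries broad. Of the 88 libraries of the other regions 36 had no peak, but InsularCortex Sham replicate 2 reached 4900 bp. PAG alone held chr3:2782808-2789948, at 7000 and 2500 bp in Sham and 7100 and 7100 bp in FT, against a median of 3250 bp and a highest of 4600 bp elsewhere. Here the domain was marked almost everywhere, since 3 of 88 libraries lacked a peak.

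Other regions each had a domain of their own. MDT held chr15:112293614-112299522, at 3300 and 5800 bp in Sham and 5900 and 5900 bp in FT. Snt held chr2:262664539-262670038, at 2400 and 5300 bp in Sham and 5500 and 5300 bp in FT. The arcuate nucleus, with 3 libraries, held chr20:40131688-40137111 at 5300 bp in Sham and 2600 and 5100 bp in FT. In these 3 domains a library of another region came as close as 4900 bp. A further pair of domains was broad in FT libraries alone. CMA held chr11:75779925-75785324 at 2800 and 2600 bp in Sham and 5400 and 5300 bp in FT. NaCcore held chr4:58328740-58333798 with no peak in Sham replicate 1, 1800 bp in Sham replicate 2 and 5000 bp in both FT libraries, and no library of another region exceeded 2700 bp there.

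The widest member was chr9:93250214-93257606, held by LH and MS. In LH its widest peak was 7100 and 4200 bp in Sham and 7000 and 7200 bp in FT, and in MS it was 4200 and 2500 bp in Sham and 4600 and 7300 bp in FT. The 84 libraries of the other regions all had a peak, with a median of 4000 bp.

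Members lay on all 20 chromosomes, from 2 on chromosomes 9, 13 and 14 to 12 on chromosome 10. The median distance from a member to the nearest other domain was 2372 kb, and 18 members lay within 100 kb of another domain. Within 200 kb of each other lay 6 pairs of members. On chromosome 12, chr12:45991910-45997109, chr12:46000107-46006606 and chr12:46086607-46091809 lay close together and all were held by PAG. The first and second were 2997 bp apart, and the second was also held by LC through Sham replicate 1.

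Whether a region repeated its domains in a second pool of animals was tested with libraries that had not been used to find them. Domains held by 1 to 4 regions were defined from the replicate 1 libraries alone, with 1 library being enough, which gave 168, and broad peaks were counted in the replicate 2 libraries of each region with 10 or more such domains. In the 10 regions tested, a domain held by a region in replicate 1 was broad in replicate 2 of that region more often than a domain it had not held. The mean excess was 33.3 percentage points (SD 15.3, n = 10 regions), above 0 in 9 of 10 (sign-flip permutation test over regions, two-sided, p = 0.0039; the smallest that 10 regions allow is 0.00195).

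The regions differed widely in this repeat. In Snt, 19 of 31 domains (61.3%) recurred, against 8.76% of the domains it had not held. In PAG 18 of 36 (50%) recurred against 1.52%, and in dorDG 8 of 19 (42.1%) against 0%. In LC none of 22 recurred, against 0.685% of those not held, and the replicate 1 libraries of LC included the library that stood apart. Found in replicate 2 and measured in replicate 1, the mean excess was 45.6 points, above 0 in 11 of 11 regions. Among Sham libraries alone it was 20.6 points (7 regions, exact permutation p = 0.0312), and among FT libraries alone 43.3 points (7 regions, exact permutation p = 0.0156). It fell to 13.3 points when FT replicate 2 was left out (9 regions, exact permutation p = 0.0156).

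Whether fluoxetine went with more broad peaks in these domains was compared in the 21 regions with 2 libraries per treatment. The FT libraries had broad peaks in more member domains than the Sham libraries in most regions. In NaCcore the counts were 0 and 1 member domains in Sham and 10 and 11 in FT, the largest difference by ratio (log2 ratio 2.94, with 1 domain added to each mean). In BLA they were 0 and 0 against 6 and 2, in CMA 0 and 0 against 4 and 3, and in PAG 17 and 5 against 25 and 20. FT lay above Sham without overlap in 12 regions, below it in 2 and overlapped with it in 7. The exceptions below were InsularCortex (3 and 2 in Sham, 0 and 1 in FT) and Raphe (16 and 9 in Sham, 8 and 6 in FT). LC, with 15 and 1 in Sham and 3 and 1 in FT, gave a log2 ratio of -1.58, and its Sham replicate 1 is the library that stood apart. In the domains that were not members FT also lay above Sham in most regions, so this lead was not particular to the members. Among those domains NaCcore had 4 and 7 in Sham and 23 and 23 in FT, and InsularCortex 4 and 6 against 9 and 9. Raphe alone had a log2 ratio below 0 there (-0.31). Within a region, 2 libraries against 2 cannot give an exact permutation p below 0.33.

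**Figure D5:**
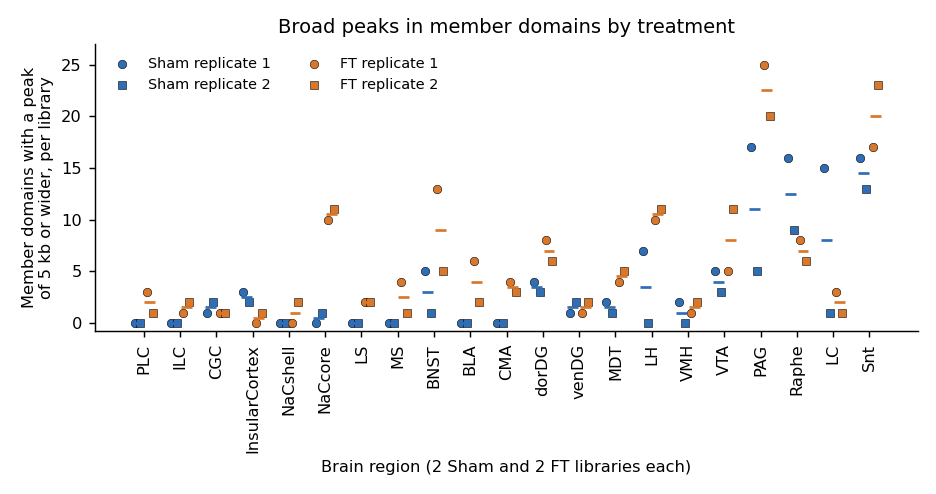
Number of member domains with a peak of 5 kb or wider in each library (vertical axis) of the 21 brain regions with 2 Sham (blue) and 2 FT (orange) libraries; circles are replicate 1, squares replicate 2 and short lines the means. NaCcore has 0 and 1 in Sham and 10 and 11 in FT, whereas Raphe and InsularCortex lie higher in Sham.

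Over the regions the mean log2 ratio of FT to Sham was 0.86 (SD 1.15, n = 21), above 0 in 16 of 21. The same ratio over all other domains was 1.09 (SD 0.83), and the difference, members minus others, was -0.23 (SD 0.88), above 0 in 11 of 21 regions. These values come from the libraries that chose the members, so they are a description, without a test. With peaks of 4 kb or wider the difference was 0.50.

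The comparison was therefore repeated in libraries that had not chosen the domains. The domains were found from Sham and FT lists together, with 1 library being enough. In replicate 1, the FT lists alone gave 148 domains of 1 to 4 regions and the Sham lists alone 114. Domains found only through FT lists can favour a ratio above 0 in the other replicate, and their part in it was not tested. For the 168 domains of 1 to 4 regions found in replicate 1, the replicate 2 libraries had a mean log2 ratio of FT to Sham of 1.39 (SD 1.03, n = 21 regions), above 0 in 18 (sign-flip permutation test, two-sided, p = 3e-05). Among these domains NaCcore had 2 broad in Sham replicate 2 and 15 in FT replicate 2, PAG 4 and 19, and Raphe 12 and 8. For the 159 domains found in replicate 2, the replicate 1 libraries had a mean of 0.90 (SD 1.25), above 0 in 17 of 21 regions (permutation p = 0.00375). Domains of 5 or more regions had means of 1.32 (SD 0.87) and 0.54 (SD 1.0) in the same comparisons. The difference, few minus many regions, was 0.08 (SD 1.01, permutation p = 0.739) in replicate 2 and 0.36 (SD 0.75, permutation p = 0.0416) in replicate 1, so a difference in the treatment ratio passed the threshold in 1 of the 2 directions and is not adjusted for these repeats.

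The Sham and FT lists differed in the same direction in length: a list held 40943 and 34518 peaks on average in Sham replicates 1 and 2, and 46551 and 48272 in FT. Cut to the top-ranked 19378 peaks of each list, the mean log2 ratio in members was 0.86, and NaCcore had 0 and 1 members in Sham and 8 and 10 in FT. The broad peaks of members ranked high in their lists, with a median at the 86.1 percentile. The cut therefore left most of them in place, with 250 of 260 domains remaining, and cannot show what list length does to the ratio. Cut to an equal covered length of 20.5 Mb, it was 0.60. Neither cut narrows a peak, and the part of peak width in the ratio was not tested. The regions share their pools of animals, and each test above sets 1 FT pool against 1 Sham pool, so the p-values measure the spread between regions and not between pools.

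Counted by holding, 31 of the 240 member holdings (12.9%) had a broad peak in both FT libraries and in neither Sham library, against 11.8% of the holdings of all domains. The reverse, both Sham and neither FT, was found in 5 (2.08%) against 1.54%. Both shares were near those of all domains. NaCcore had 6 of the 31, PAG 5 and BNST 4. The Sham libraries of these 31 holdings were mostly narrow rather than empty. Of 62 pairs of a holding and a Sham library, 61 had a narrow peak, with a median widest of 2800 bp, and 20 reached 4 kb or more. Counted by domain, 67 of 113 members (59.3%) were broad in more FT than Sham libraries, against 66.5% of all domains, and 16 (14.2%) in more Sham than FT libraries, against 17.7%.

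The domains with the largest difference by treatment ranged from widths far apart to widths near the limit of 5 kb. The domain chr10:92084773-92090412 was broad in 6 FT libraries and 1 Sham library. There BNST had 4800 and 4600 bp in Sham and 5200 and 5000 bp in FT, and Snt 5100 and 4700 bp against 5000 and 4900 bp. NaCcore had 3500 and 4800 bp against 4500 and 5100 bp, and LH 4200 and 2100 bp against 5100 and 5100 bp. In BNST and Snt the count thus rested on the limit. In chr16:7704292-7709501 the widest peak in NaCcore was 2600 and 2900 bp in Sham and 5100 and 5200 bp in FT, and in BNST it was 2300 and 2400 bp in Sham and 5000 and 5100 bp in FT. Sham and FT did not overlap in either region. In chr8:47644699-47650398, broad in 5 FT libraries and no Sham library, FT replicate 2 was broad in NaCcore (5200 bp), BNST (5400 bp), LH (5700 bp) and Snt (5400 bp). In LH and Snt, FT replicate 1 of this domain was 3300 and 2600 bp wide, against 3300 and 3100 bp in Sham LH and 2600 and 2600 bp in Sham Snt. In NaCcore it was 3100 bp in FT replicate 1 against 2100 and 2200 bp in Sham. Of this domain, 4 of the 5 broad peaks came from FT replicate 2.

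In chr4:210095089-210101229 the difference lay in BLA, with 3500 and 1700 bp in Sham and 5500 and 5800 bp in FT, while dorDG was broad in both treatments (4200 and 5400 bp in Sham, 5300 and 5300 bp in FT). In chr1:88433021-88438963 CMA had 3200 and 4700 bp in Sham and 5400 and 5400 bp in FT. The largest difference in the other direction was in chr7:11693102-11698201, broad in 4 Sham libraries and 1 FT library. There Raphe had 5000 and 5000 bp in Sham against 4900 and 4800 bp in FT, and LH had 5000 and 4600 bp against 4800 and 5000 bp. Those widths differed by 400 bp at most, so the count rested on the limit of 5 kb. In chr10:45871657-45876839 LH had 5000 and 4700 bp in Sham and 4900 and 4700 bp in FT, while BNST had 5000 and 1900 bp in Sham and 4900 and 4800 bp in FT. In chr10:69837906-69843905, by contrast, the broad libraries stood clear of the rest: NaCcore had 2600 and 5200 bp in Sham and 2700 and 2600 bp in FT, and each of its 4 regions had a single broad library.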

How the data were processed

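Peak lists of H3K27ac ChIP-seq libraries were used. Per the authors, the genome was Rn5 and DFilter called peaks on each library separately. BWA is named in the submitters' processing notes, without a version. Each deposited list gives a maximum score, a normalised tag signal, a false discovery rate in percent (0 throughout) and a −log10 p, which the authors' caller reports between 4 and 200. Widths come in steps of 100 bp. Starts were taken as counted from 0 and are printed from 1. HB was left out by the rule, and 4 input libraries were not used.

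Peaks of 5000 bp or wider were joined, and overlaps and widths computed, with numpy 2.4.6, pandas 2.3.3 and scipy 1.17.1 in Python 3.11.15. A narrow peak was any overlapping peak below that width. Ratios added 1 domain to each mean. Permutation tests flipped signs over regions with 100000 resamples, or over all sign patterns for fewer than 10 regions. Steps were tested on simulated data. The domains described singly were the 10 members with the most broad libraries, the fullest held alone by each region, the 5 with the largest difference in each treatment direction and the widest, plus, chosen after their values were seen, those with peaks in the fewest other libraries and the close neighbours. The members and lists were chosen with earlier results of these data known. Sham and FT libraries of a replicate number were processed in parallel per the study's methods. Their differences between replicates 1 and 2 in member counts had a Pearson r of 0.284 over 21 regions. Alternatives changed the minimum width, the limits on regions and libraries, the caller's p, list size, pseudocount and replicates. Per the study's methods each replicate was its own pool of animals, and p-values over regions measure the spread between regions.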

Additional observations from a re-analysis of the deposited data

Results flagged for a closer look

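InsularCortex (log2 ratio of FT to Sham in member domains with a broad peak, -1.22) and Raphe (-0.75) had both FT libraries below both Sham libraries, whereas the reverse held in 12 regions. The difference between these regions and the others was not tested. In InsularCortex the direction held for members alone and rested on counts of 0 to 3. Its other domains had 4 and 6 broad in Sham and 9 and 9 in FT (log2 ratio 0.74). With lists cut to equal size its member counts were 3 and 1 in Sham and 1 and 1 in FT, which overlapped. Of the domains found in replicate 1, it had 2 broad in Sham replicate 2 and 3 in FT replicate 2. The other domains of Raphe had 30 and 20 in Sham and 25 and 15 in FT (-0.31). In Raphe the nearest library of Sham replicate 1 by peak overlap was a Snt library, and the part of that library in the ratio was not tested.

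The HB libraries lay outside the rule. FT HB replicate 1 had a broad peak in 4 member domains, among them chr18:64569968-64576098 at 5100 bp, a narrow peak in 99 and no peak in 10. Of the 12 domains with few peaks elsewhere it had a peak in 2, and of the other 101 in all 101. Sham HB replicate 1 had no peak in any of the 113 members, with a list of 32584 peaks and a median width of 500 bp. On chromosome X, also outside the rule, there were 82 peaks of 5 kb or wider in 8 domains, of which 3 were held by 1 to 4 regions with 2 or more libraries.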

How the results depend on the processing

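The number of member domains was set by the limits of the rule. It was 540 with peaks of 4 kb or wider, 21 at 6 kb, 204 with 1 or more libraries, 71 with 3 or more libraries, 75 with at most 2 regions and 71 when a region held a domain from 4.5 kb; no domain remained at 8 kb. The share of other libraries with a narrow peak was 79.8% at 4 kb, 93.5% at 6 kb, 84.4% for peaks with a −log10 p of 6 or more, 75.1% with lists cut to equal size and 95.9% without PAG. The mean log2 ratio of FT to Sham in members ran from 0.35 at 6 kb to 1.51 at 4 kb, with members chosen from the libraries compared in all but the alternatives that found domains in the other replicate (1.39 and 0.90, chosen after seeing the data). Its difference from the other domains reversed at 4 kb (0.50), at 6 kb (0.07) and when domains were found in the other replicate (0.08 and 0.36); the cause was not tested. Pairing the libraries by replicate number gave a ratio of 0.92 over 42 pairs and a difference of -0.23, and the replicate block changed no direction. Leaving out 1 pool at a time gave 87 to 110 members, shares of 87.6 to 90.1%, ratios of 0.71 to 1.26, differences of -0.34 to -0.08 and an excess in the repeat of 13.3 to 48.1 points. The repeat could not be run at 6 kb, because no region held 10 domains. Over the 25 domains described by the rule, 33 of 200 recomputed shares of libraries with a broad peak moved, 12 of them at 4 kb, 20 at 6 kb and 1 without FT replicate 2.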
